A study of Oryctolagus cuniculus with 6 samples.

Results

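Genes of the T cell, B cell and plasma cell receptor and antibody machinery were examined in rabbit retinas with and without proliferative vitreoretinopathy (PVR), the scarring disease in which contractile membranes form on and around the retina. The genes are CD3D, CD3E, CD3G, CD4, CD8A, CD79A, CD79B, JCHAIN and MZB1, chosen by name, and they are 9 of the 28788 genes in the deposited tables. Of these, 7 are listed under their symbol, whereas CD3D and CD3G stand under the identifiers LOC100356153 and LOC100352809, which RefSeq's rabbit annotation now pairs with those symbols. RNA carrying a poly(A) tail from retina was sequenced in 3 normal samples and 3 PVR samples. In the PVR eyes of adult rabbits the sclera was punctured, some vitreous was drawn off and platelet-rich plasma was injected into the vitreous cavity. The normal retinas are described only as normal, so whether those eyes were punctured or injected is not given in the sources used here. The same holds for strain, sex, the time after injection and whether each sample is a separate animal, so the p-values below measure the spread between these samples, which may be technical.

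T cells recognise antigen through a receptor whose signal is carried by the CD3 chains, of which CD3D, CD3E and CD3G are members. CD4 and CD8A are coreceptors that bind the molecules presenting the antigen, and CD4 is also made by macrophages in several species. B cells signal through CD79A and CD79B, which sit beside the membrane antibody. Plasma cells, the descendants of B cells that secrete antibody, make JCHAIN, the small protein that joins IgA and IgM into polymers, and MZB1, an endoplasmic reticulum protein that helps antibody to assemble. The healthy neural retina lies behind a blood-retina barrier and holds very few lymphocytes.

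The samples had between 31904593 and 43035080 counted reads. A count of 3 or fewer was taken as the limit of detection, which is between 0.0697 and 0.0940 CPM, a unit in which every sample has the same total. All 15 retina markers that were matched were over this limit in every sample, and together they made 3.87% to 4.81% of the counts in normal and 2.93% to 3.98% in PVR retina, with the lowest value in PVR replicate 2, the sample with the highest JCHAIN. Of these 15 markers 14 were fitted lower in PVR, 7 of them at an unadjusted p under 0.05 (edgeR). Of all 18697 genes tested, 9551 were fitted lower, 1859 of them at such a p. GLUL, the glutamine synthetase of Müller glia, fell (log2 fold change -1.11, adjusted p = 0.0125, edgeR). Without normal replicate 3 the log2 fold change of GLUL was -0.98, and without PVR replicate 1 its adjusted p was 0.106 (edgeR). The part of the retina markers in the results below was not tested. Lens genes took 3.53% of the counts of normal replicate 2. Their share was 0.00273% and 0.00238% in normal replicates 1 and 3, and 0.0307% to 0.0345% in the PVR samples. With the lens genes left out of the fit the log2 fold change of JCHAIN was 1.83, against 1.82 with them. The log2 fold changes of CD3E, JCHAIN, MZB1 and CD79A without normal replicate 2 are given with these genes, and the number of all genes called was 64 without it, against 188 with it. In bulk tissue, fewer cells of a type cannot be told apart from less RNA per cell.

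Detection differed more between single samples than between the groups. All 9 genes were over 3 counts in normal replicate 2 and in PVR replicate 1, and 8 were in PVR replicate 2. Of the others, normal replicate 1 had 6, PVR replicate 3 had 4 and normal replicate 3 had 3. JCHAIN and CD8A were the members over 3 counts in every sample. JCHAIN made 92.8% of the 10405 reads counted for the 9 genes over all 6 samples, so the other 8 genes together had between 28 and 223 reads per sample.

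The CD3 chains, which define T cells, were near the limit of detection. CD3E had 6, 18 and 0 reads in normal retina and 9, 19 and 0 in PVR retina. CD3D counted 1, 7 and 0 in normal replicates and 4, 10 and 0 in PVR replicates. CD3G had 1, 13 and 0 reads in normal retina and 5, 2 and 0 in PVR retina. Normal replicate 3 and PVR replicate 3 thus had no read of any of the 3 chains. The exact Poisson interval of a count of 0 reaches 0.0920 CPM in the first and 0.0857 CPM in the second of these samples. Summed over the 3 chains, the level was highest in PVR replicate 2 (0.958 CPM, 31 reads) and normal replicate 2 (0.931 CPM, 38 reads), 1 sample of each group. The sum was 0.564 CPM in PVR replicate 1 and 0.205 CPM in normal replicate 1.

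Of CD3D, CD3G and CD3E, only CD3E had enough counts to be tested. Its log2 fold change of PVR over normal was 0.40 with a standard error of 1.39 (adjusted p = 0.886, quasi-likelihood test of edgeR, Benjamini-Hochberg adjustment over all 18697 genes tested). The sign depended on single samples. The fitted log2 fold change was 1.78 without normal replicate 2, the sample with the largest share of lens genes, and -0.65 without PVR replicate 2. For CD3D and CD3G the mean FPKM (reads scaled to gene length and sample depth) differed between the groups by 0.0980 and -0.0144, PVR minus normal. Both differences were smaller than the spread within either group (two-sided exact permutation tests over 3 samples against 3, p = 0.7 and p = 0.9, where the smallest p the design allows is 0.1). CD247, the zeta chain of the same receptor complex, was tested among the T cell signalling genes described below. It had 7, 8 and 11 reads in normal retina and 11, 17 and 9 in PVR retina, so replicate 3 of either group had reads of it. The log2 fold change of CD247 was 0.64 with a standard error of 0.58 (adjusted p = 0.546, edgeR).

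The coreceptors did not follow the CD3 chains from sample to sample. CD8A, the alpha chain of the coreceptor of cytotoxic T cells, counted 65, 41 and 21 in normal replicates and 51, 24 and 49 in PVR replicates. The highest and the lowest level both belonged to normal samples. PVR replicate 3 had 49 reads of CD8A and none of CD3E, so CD3E was 0% of the summed reads of both genes, with an upper limit of 7.25% (exact Clopper-Pearson interval at 95%, counting error only). In PVR replicate 2 the same share was 44.2%, with an interval from 29.1% to 60.1%. The log2 fold change of CD8A was 0.05 with a standard error of 0.51 (adjusted p = 0.966, edgeR), and it changed sign without normal replicate 3 or without PVR replicate 1, where it was -0.28 and -0.24. CD8B, the beta chain that pairs with CD8A on most cytotoxic T cells, had 24, 6 and 2 reads in normal retina and 2, 4 and 1 in PVR retina.

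CD4, the coreceptor of helper T cells, counted 7, 8 and 2 in normal replicates and 15, 6 and 12 in PVR replicates. The groups overlapped by a narrow margin, since PVR replicate 2 (0.185 CPM) lay under normal replicate 2 (0.196 CPM). The mean was 0.142 ± 0.0800 CPM (SD, n = 3) in normal and 0.311 ± 0.145 CPM (SD, n = 3) in PVR retina. CD4 was too low for the filter on counts, and the exact permutation test of its FPKM gave p = 0.2 (two-sided, smallest possible p 0.1). Unlike the CD3 chains, CD4 was detected in PVR replicate 3, with 12 reads.

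**Figure D1:**
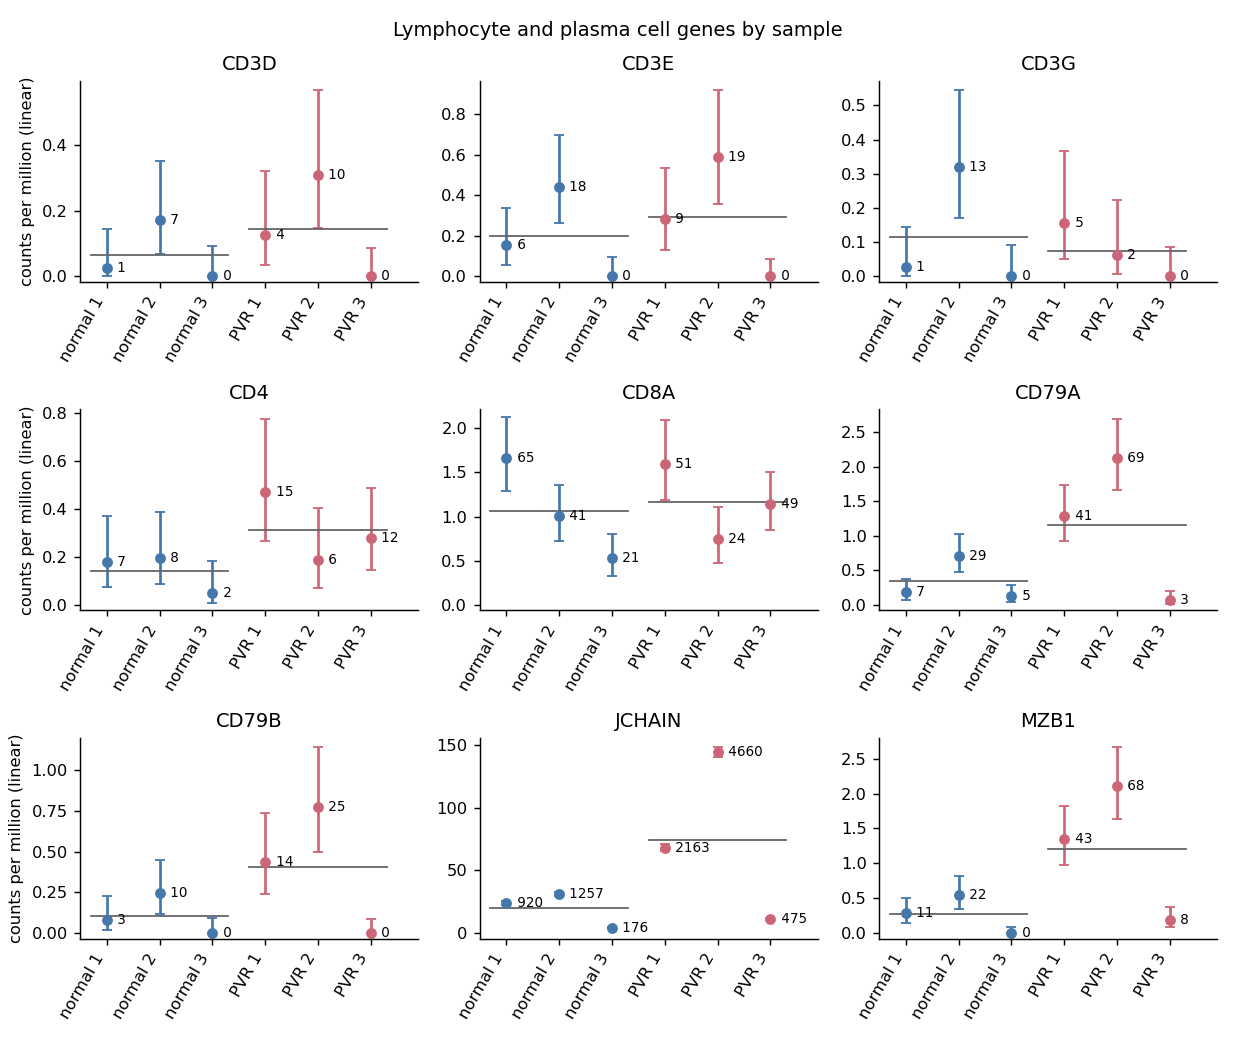
CPM (linear vertical axes) of the 9 genes in each of the 6 samples, normal in blue and PVR in red, with the raw count beside each point. Bars are 95% exact Poisson intervals for counting error and grey lines are group means. The B and plasma cell genes are highest in PVR replicates 1 and 2, and normal replicate 3 and PVR replicate 3 have 0 reads of CD3D, CD3E and CD3G.

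The B cell receptor chains were low as well, but their pattern was sharper. CD79A had 7, 29 and 5 reads in normal retina and 41, 69 and 3 in PVR retina. PVR replicates 1 and 2 were above every normal sample, and PVR replicate 3 was below every one. CD79B counted 3, 10 and 0 in normal replicates and 14, 25 and 0 in PVR replicates, with the same pair of PVR samples on top. Within the PVR group alone, CD79A differed by 30.6 times between the highest and the lowest sample, although the lowest value rests on 3 reads. CD79A had a log2 fold change of 1.66 with a standard error of 1.09 (adjusted p = 0.412, edgeR). CD79B did not pass the filter, and its mean FPKM of 0.0879 ± 0.103 (SD, n = 3) in normal and 0.331 ± 0.317 (SD, n = 3) in PVR samples gave p = 0.4 (two-sided exact permutation test).

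JCHAIN was the one abundant member. It had 920, 1257 and 176 reads in normal retina and 2163, 4660 and 475 in PVR retina. In FPKM these were 16.5, 21.5 and 3.06 against 47.3, 100.5 and 7.70. By FPKM, JCHAIN ranked at position 381 of the 22435 genes with counts in PVR replicate 2 and at position 10078 of 22178 in normal replicate 3. The means were 19.6 ± 13.6 CPM (SD, n = 3) in normal and 74.3 ± 66.7 CPM (SD, n = 3) in PVR, a ratio of 3.79. The groups overlapped, since PVR replicate 3 was below normal replicates 1 and 2. The highest sample was 13.0 times the lowest in PVR and 7.01 times in normal, both above the ratio of the means. The means differed by 54.7 CPM, which is less than the SD in PVR but more than the SD in normal. The log2 fold change was 1.82 with a standard error of 0.93 (adjusted p = 0.300, edgeR), and it was 0.92 without PVR replicate 2 and 2.33 without PVR replicate 3.

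MZB1 followed JCHAIN from sample to sample. It counted 11, 22 and 0 in normal replicates and 43, 68 and 8 in PVR replicates, which puts the 6 samples in the same order as JCHAIN. Its log2 fold change was 2.02 with a standard error of 1.16 (adjusted p = 0.350, edgeR). Without normal replicate 2 the log2 fold changes of JCHAIN, MZB1 and CD79A were 2.34, 3.01 and 2.84, and none was called (adjusted p = 0.355, 0.359 and 0.339, edgeR). Without PVR replicate 2 those of MZB1 and CD79A were 1.37 and 0.88, and without PVR replicate 3 they were 2.54 and 2.22, again with no call.

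No member passed both thresholds, which were 0.05 for the adjusted p and 1 for the size of the log2 fold change. Of the 9 genes, 5 passed edgeR's filter on low counts, and none of these 5 was called, against 1.01% of all 18697 genes tested. At an unadjusted p under 0.05 edgeR gave none either, against 21.2% of all genes. DESeq2 called none of the members and 4.02% of the genes for which it gives an adjusted p, and limma-voom called none and 0.69%. Likewise, none of the 9 genes had every PVR sample on one side of every normal sample in CPM, whereas 23.8% of the 23135 genes over 3 counts in some sample did. Leaving out PVR replicate 3 put CD79A, CD79B, JCHAIN and MZB1 higher in both remaining PVR samples than in every normal sample. Without that sample 25.9% of all genes were so ordered. A p that misses the threshold does not show that the groups were alike, as the standard errors of the tested members ran from 0.51 to 1.39 on the log2 scale.

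**Figure D2:**
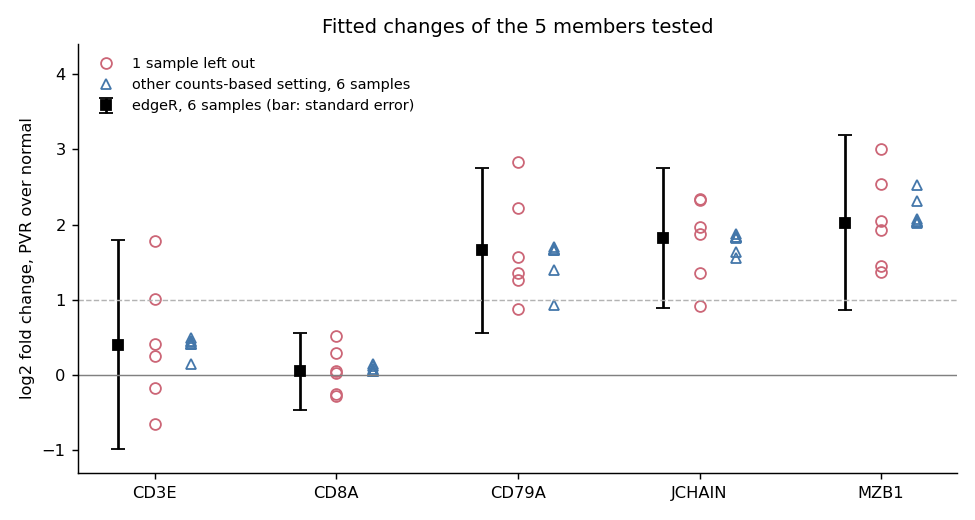
Log2 fold change of PVR over normal (vertical axis) for the 5 members tested: squares are edgeR on all 6 samples with the standard error as bar, circles leave 1 sample out, and triangles are other settings on the counts with all 6 samples. The dashed line marks a log2 fold change of 1; CD79A, JCHAIN and MZB1 stay above 0 in all points shown, whereas CD3E and CD8A have points on both sides of 0.

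The spread between samples of the same group was wide for the members tested. The biological coefficient of variation, edgeR's measure of the spread within groups beyond counting noise, was 0.730 for JCHAIN, which is at percentile 97.3 of all genes tested. It was 0.952 for MZB1, 0.874 for CD79A and 1.19 for CD3E, at percentiles from 98.7 to 99.6, whereas CD8A had 0.453, at percentile 86.0. This measure tends to be high for genes with few counts, as MZB1, CD79A and CD3E are, whereas JCHAIN had no fewer than 176 reads in any sample. From the lowest to the highest sample, log2 CPM of JCHAIN spanned 4.96, and 240 of the 18697 genes spanned as much or more, JCHAIN included.

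Parts of the sample order recurred among the members, a pattern noticed after the values were seen. Normal replicate 3 and PVR replicate 3 were the lowest 2 samples for 7 of the 9 genes, all except CD4 and CD8A, against 5.29% of all 23135 genes. For 4 of these 7, the CD3 chains and CD79B, both samples had 0 reads. PVR replicates 1 and 2 were the 2 highest samples for 4 of the 9 genes, CD79A, CD79B, JCHAIN and MZB1, against 19.4% of all genes. Both orders together held for these 4 genes, 44.4% of the members, and for 1.47% of all genes. Among 75 genes of the related lists described below, PVR replicates 1 and 2 were highest for 36.0%, normal replicate 3 and PVR replicate 3 lowest for 21.3%, and both held for 6.67%. The CD3 chains differed from these, since normal replicate 2 was first or second for all 3 of them.

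The proportions between the B and plasma cell members varied less from sample to sample than their levels. MZB1 was 1.18%, 1.72% and 0% of the summed MZB1 and JCHAIN reads in normal retina and 1.95%, 1.44% and 1.66% in PVR retina. The 0% of normal replicate 3 has an upper limit of 2.07%, so all 6 exact intervals overlap. CD79B was 30.0% and 25.6% of the summed CD79 reads in normal replicates 1 and 2 and 25.5% and 26.6% in PVR replicates 1 and 2. The other 2 samples had no read of CD79B beside 5 and 3 of CD79A. CD79A was a less even share of its sum with JCHAIN, from 0.628% in PVR replicate 3 and 0.755% in normal replicate 1 to 2.26% in normal replicate 2 and 2.76% in normal replicate 3. The intervals of normal replicate 1 (0.304% to 1.55%) and normal replicate 2 (1.52% to 3.22%) barely meet.

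**Figure D3:**
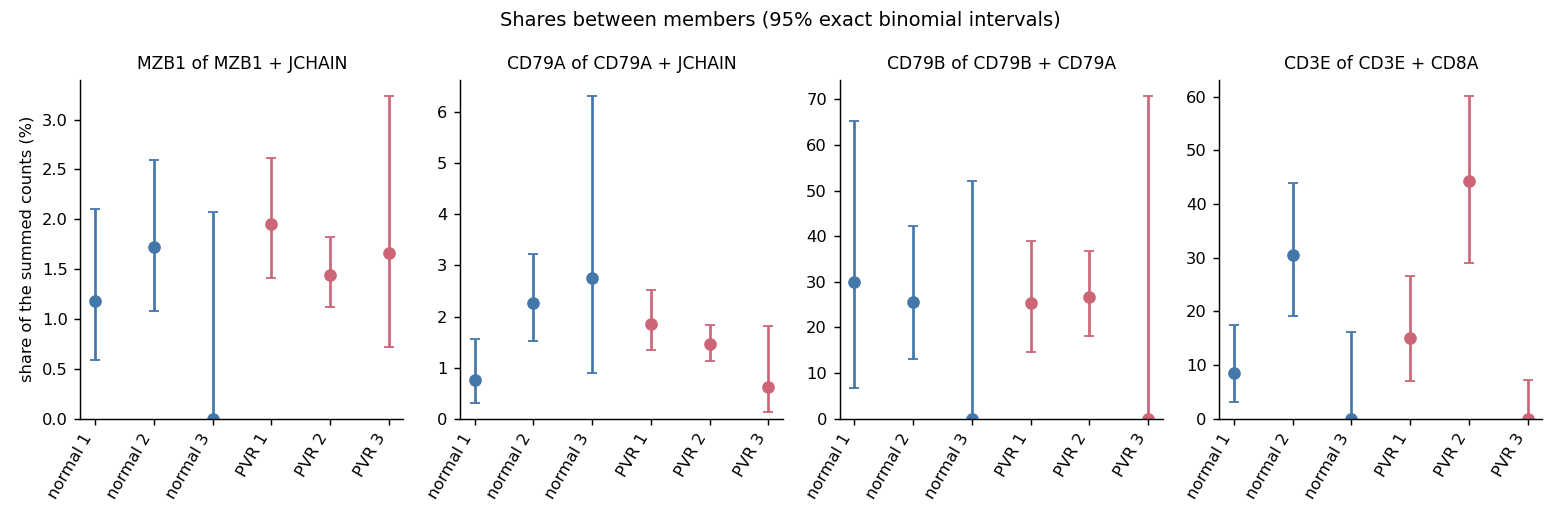
Share (vertical axis, percent) of 1 gene in the summed reads of a pair, for MZB1 with JCHAIN, CD79A with JCHAIN, CD79B with CD79A and CD3E with CD8A, by sample, normal in blue and PVR in red. Bars are exact 95% binomial intervals for counting error; MZB1 stays between 0% and 1.95% of its sum, whereas CD3E ranges from 0% to 44.2% of its sum with CD8A.

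Compared per length, JCHAIN was far above the rest, with a mean FPKM of 32.8 over the 6 samples. MZB1 followed at 0.886, CD8A at 0.511, CD3E at 0.307, CD79B at 0.209, CD79A at 0.180, CD4 at 0.151, CD3D at 0.130 and CD3G at 0.0322. Of the 8 pairs of neighbours in this order, only JCHAIN and MZB1 stood in the same order in all 6 samples (exact sign-flip permutation test, p = 0.0312, the smallest that 6 samples allow, adjusted p = 0.25). For the other 7 pairs the exact permutation p was between 0.125 and 0.875. The mean difference was smaller than its SD over the samples for all 8 pairs, JCHAIN and MZB1 included (31.9 against 35.7). CD79A and CD79B form a one-to-one dimer in the receptor, and their FPKM differed by 0.0291 ± 0.0539 (SD, n = 6), CD79B minus CD79A. This rests on the gene lengths behind the FPKM, 4163 bases for CD79A and 1221 for CD79B. The raw counts over all 6 samples were 154 and 52.

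Genes of the same pathways were taken from 6 lists, chosen by role, with 78 of 97 genes matched to the tables and 50 of them tested. None passed the thresholds with edgeR or limma-voom. DESeq2 called BTK, IRF4, POU2AF1 and ICAM1, 4 of the 78 matched genes. It called 4.02% of all genes for which it gives an adjusted p. At an unadjusted p under 0.05, edgeR gave 8 higher and 1 lower in PVR, which is 18.0% of the 50, against the 21.2% of all genes. The groups were apart for 15 of the 75 list genes over 3 counts in some sample, all 15 with PVR higher, against 15.3% of all genes with PVR higher. The median fitted log2 fold change was 0.342 over the 50 genes and -0.00884 over all genes tested. The 11 genes of T cell receptor and antibody constant regions, the sixth list, were not matched and not analysed here.

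Among the T cell signalling genes, 13 were tested, with 6 fitted higher and 7 lower and a median log2 fold change of -0.296, and none had an unadjusted p under 0.05 in edgeR. LCK, the kinase that starts signalling at the T cell receptor, had 38, 26 and 7 reads in normal retina and 15, 10 and 5 in PVR retina (log2 fold change -1.09, adjusted p = 0.439, edgeR). CD28, the costimulatory receptor, counted 12, 43 and 2 in normal replicates and 4, 9 and 2 in PVR replicates (log2 fold change -1.76, standard error 1.09, adjusted p = 0.383, edgeR). TRAT1 went the other way, with 8, 14 and 2 reads in normal and 13, 22 and 21 in PVR retina, and its groups were apart. Its log2 fold change was 1.30 with a standard error of 0.70 (adjusted p = 0.324, edgeR). IL2RG, which was not tested, had 1, 8 and 1 reads against 24, 30 and 5. TCF7, a transcription factor of T cells, had the highest FPKM of the list, with a mean of 2.56, followed by LCP2 at 0.893 and CD6 at 0.530, and their log2 fold changes were 0.50, 0.86 and -0.51. Of the 8 matched genes of natural killer and cytotoxic cells, 2 were tested. TBX21, a transcription factor of cytotoxic and helper cells, had a log2 fold change of 1.34 (unadjusted p = 0.0133, adjusted p = 0.136, edgeR), and EOMES, which retinal ganglion cells also use, had -0.12. GZMA, a granzyme, had a mean FPKM of 0.0809, with 10, 12 and 0 reads in normal retina and 5, 1 and 2 in PVR retina. PRF1 had 9, 17 and 2 reads in normal retina and 0, 6 and 5 in PVR retina. GZMK had 0, 12 and 0 against 3, 1 and 0, and FASLG 2, 12 and 0 against 0, 6 and 0. KLRK1 and IFNG did not exceed 5 and 4 reads in any sample. None of these genes passed the filter on counts.

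B cell genes other than the CD79 chains gave 13 tests, with 9 fitted higher and 4 lower. MS4A1, which encodes CD20, had 7, 6 and 0 reads in normal retina and 16, 27 and 0 in PVR retina, so PVR replicates 1 and 2 were highest and replicate 3 of either group was at 0. CD22, an inhibitory receptor of B cells, had 11, 2 and 7 counts in normal and 27, 48 and 19 in PVR, so its groups were apart (log2 fold change 2.36, standard error 0.72, unadjusted p = 0.0126, adjusted p = 0.133, edgeR). BTK and BANK1, which act in B cell receptor signalling, had log2 fold changes of 1.91 and 1.42 (adjusted p = 0.164 and adjusted p = 0.160, edgeR). The adjusted p of BTK was 0.0420 with DESeq2. CD72, another inhibitory receptor of B cells, had 48, 46 and 12 counts in normal and 15, 21 and 20 in PVR (log2 fold change -0.83, adjusted p = 0.439, edgeR). BLK, a kinase of the B cell receptor, and CIITA, the activator of antigen-presenting genes, were fitted at -0.39 and -0.38, and PAX5, a transcription factor that defines B cells and had 59 to 128 reads per sample, at 0.10. EBF1, LYN and BLNK were the most abundant of the list, with mean FPKM of 1.59, 1.58 and 1.40 and log2 fold changes of -0.09, 0.63 and 0.44.

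Plasma cell genes differed widely in abundance, and of 11 tested 7 were fitted higher and 4 lower in PVR (median log2 fold change 0.153). FKBP11 was fitted at 0.72 (unadjusted p = 0.0393, adjusted p = 0.214, edgeR), and DERL3, PIM2 and ELL2 at 1.05, 0.11 and -0.37. SSR4, SEC11C and XBP1, parts of the general secretory and stress machinery that many cells use, had mean FPKM of 75.2, 67.6 and 27.6 and log2 fold changes of -0.09, -0.13 and 0.15. POU2AF1, a transcriptional coactivator of B and plasma cells, counted 5, 8 and 0 in normal replicates and 64, 118 and 8 in PVR replicates. It did not pass edgeR's filter, and DESeq2 called it (log2 fold change 4.07, adjusted p = 0.00228). Its groups overlapped, as PVR replicate 3 was not above normal replicate 2 in CPM. IRF4, a transcription factor needed by plasma cells, had 37, 19 and 6 reads in normal retina and 97, 225 and 20 in PVR retina (log2 fold change 2.64, standard error 0.98, adjusted p = 0.187, edgeR; adjusted p = 0.0156, DESeq2). PRDM1, another such factor that photoreceptor precursors also use, had a log2 fold change of -0.06. TNFRSF17 had 75, 36 and 81 reads in normal retina and 82, 111 and 107 in PVR retina, and SDC1 had 2, 37 and 13 against 34, 62 and 52. Their log2 fold changes were 0.75 and 1.61 (adjusted p = 0.281 and 0.295, edgeR). In both genes PVR replicate 3 was above every normal sample in CPM, unlike in JCHAIN. PIGR, which was not tested, had 0 reads in normal retina and 3, 2 and 26 in PVR retina.

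The homing list, adhesion molecules and chemokines that guide lymphocytes, held the smallest p among the genes of the 6 lists. ITGA4, an integrin subunit with which leukocytes bind to vessel walls, counted 826, 672 and 682 in normal replicates and 1068, 1433 and 1408 in PVR replicates. Its log2 fold change of 0.94 had a standard error of 0.16 and an adjusted p of 0.0403 (edgeR), but it was not past the fold threshold. ICAM1, the endothelial ligand of leukocyte integrins, had 74, 93 and 11 counts in normal and 207, 210 and 299 in PVR (log2 fold change 2.08, adjusted p = 0.133, edgeR; adjusted p = 0.00275, DESeq2). CXCL13, a chemokine that attracts B cells, had 157, 104 and 6 counts in normal and 187, 340 and 55 in PVR. CXCL9, which attracts activated T cells, had 84, 141 and 0 counts in normal and 0, 6 and 4 in PVR. Of 11 genes of the list tested, 9 were fitted higher and 2 lower, CXCR4 and CXCL10. CXCR4 had 350, 316 and 330 counts in normal and 161, 155 and 334 in PVR. Its log2 fold change was -0.57 (unadjusted p = 0.0433, adjusted p = 0.221, edgeR). CXCL10 had 283, 465 and 7 counts against 69, 45 and 52 (log2 fold change -2.08, adjusted p = 0.305, edgeR). S1PR1 and VCAM1, the most abundant of the list, had mean FPKM of 14.7 and 5.88 and log2 fold changes of 0.14 and 0.20.

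Leukocyte markers that are not specific to lymphocytes were measured in the same samples, and their part in the results above was not tested. The 11 genes found in leukocytes of all kinds were all matched, and their summed level was 41.4 to 58.3 CPM in normal and 69.4 to 120.1 CPM in PVR retina. It was highest in PVR replicate 2 and lowest in normal replicate 3, as for JCHAIN and MZB1. The 17 matched genes of macrophages and microglia summed to 41.5 to 77.9 CPM in normal and 103 to 129.5 CPM in PVR samples, and PVR replicate 3 stood at 103 CPM, above every normal sample. Of these lists, 10 and 16 genes were tested, all fitted higher in PVR, and none passed the thresholds with edgeR or limma-voom, whereas 5 and 8 had an unadjusted p under 0.05 in edgeR. This is 50.0% of either list, against 21.2% of all genes. DESeq2 called 4 and 2 of them, against 4.02% of all genes. LAPTM5, LCP1 and CD48 were the most abundant pan-leukocyte genes by FPKM, with log2 fold changes of 1.21, 0.12 and 0.79. C1QA, C1QB and TYROBP were the most abundant of the macrophages and microglia, with log2 fold changes of 0.66, 0.53 and 0.96.

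Of the neutrophil list, the calcium-binding genes S100A8, S100A9 and S100A12, which monocytes share, rose in PVR and were the only genes of the leukocyte lists past the thresholds, by 4.27, 2.96 and 3.21 on the log2 scale (adjusted p = 0.0486, 0.0416 and 0.0342, edgeR). The lowest PVR sample had 136, 130 and 91 reads of these genes, and the highest normal sample 24, 36 and 19. Each lost the call with limma-voom and without normal replicate 2, PVR replicate 1 or PVR replicate 2, where the adjusted p from edgeR was between 0.0887 and 0.237. S100A9 and S100A12 also lost it without normal replicate 1, where the adjusted p was 0.123 and 0.113, and S100A8 lost it with the replicate number as a block, at an adjusted p of 0.0550. In the settings without a call the log2 fold changes were between 2.63 and 4.77. MPO and MMP8, which mark neutrophil granules, had no count in any sample, and CSF3R did not exceed 6. LTF, another gene of this list, had 2, 13 and 33 reads in normal retina and 3, 10 and 0 in PVR retina. The log2 fold changes of LTF and CXCR2, the other genes of the list that were tested, were -1.67 and 0.52 (adjusted p = 0.461 and 0.619, edgeR). The 8 matched genes of this list summed to 1.65 to 2.45 CPM in normal and 8.71 to 20.1 CPM in PVR samples. Platelet and red cell genes summed to 34.6 to 42.4 CPM in normal and 20.4 to 28.8 CPM in PVR samples over 11 matched genes, and 1 platelet gene, TREML1, had no count in any sample. The most abundant of them were the globin genes HBA and HBB2 and the platelet gene GP1BB, with log2 fold changes of -1.08, -0.66 and -0.08. None of the list was called by edgeR (adjusted p of HBA 0.0613), whereas DESeq2 called 1. Of 8 genes tested 6 were fitted lower and 2 higher, the latter being the platelet genes PPBP and GP9 (1.80 and 0.79). ITGA2B and TUBB1, also platelet genes, were fitted at -0.53 and -0.94.

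**Figure D4:**
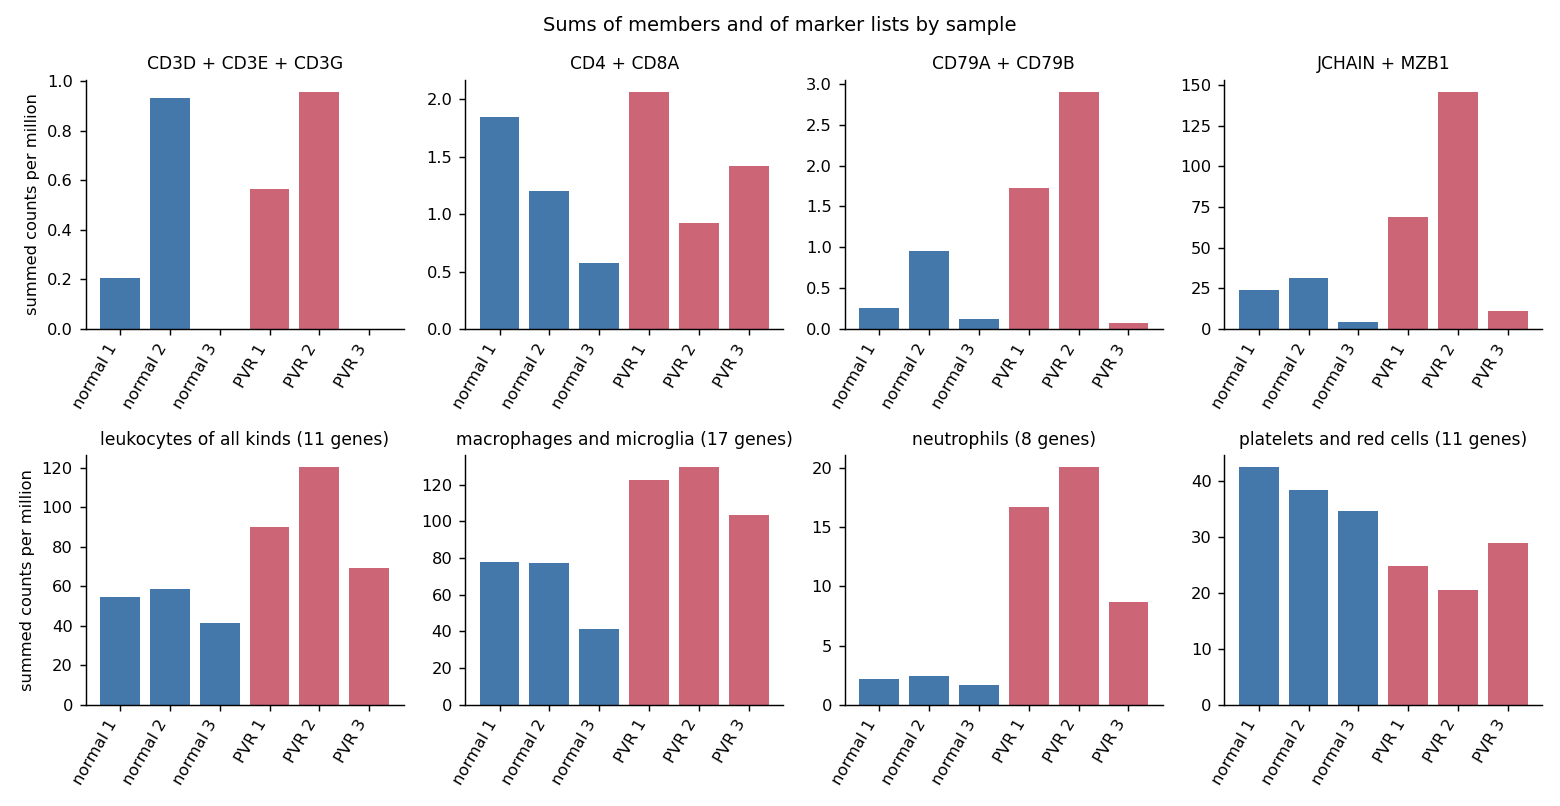
Summed CPM (vertical axes from 0) by sample, normal in blue and PVR in red, for 4 sets of members in the upper row and 4 marker lists in the lower row. JCHAIN + MZB1 ranges from 4.39 to 146 with PVR replicate 3 below normal replicates 1 and 2, whereas the macrophage and microglia sum is above 103 in all PVR samples and under 78 in all normal samples.

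The genes with a symbol whose pattern over the 6 samples was nearest to each member were found by the root mean square difference of log2 CPM, centred on each gene's mean, among 13547 genes. For JCHAIN the nearest were MZB1 (0.315), IL32 (0.326) and SPN (0.456), against a median of 1.65 over all these genes. IL32, a cytokine gene, had 29, 65 and 5 reads in normal retina and 58, 140 and 19 in PVR retina. For MZB1 they were JCHAIN (0.315), IL32 (0.416) and SYK (0.435), and for CD79A they were MKI67 (0.511), TBC1D10C (0.558) and SPN (0.560). For CD3E the nearest were TBC1D10C (0.389), CENPA (0.399) and IL32 (0.550). TBC1D10C counted 7, 17 and 1 in normal replicates and 20, 18 and 1 in PVR replicates. CD8A had different neighbours, LEFTY2 (0.174), NPY (0.182) and SLC37A1 (0.215), against a median of 0.596. NPY encodes a neuropeptide that retinal amacrine cells make, and it had 344, 234 and 148 reads in normal retina and 252, 175 and 312 in PVR retina.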

How the data were processed

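Per the labels and the paper's methods, the authors trimmed reads with fastp, aligned them to OryCun2.0 with HISAT2 2.1.0 and deposited raw read counts per gene from htseq-count 0.11.2. The annotation release and the strand setting are not given in the sources used here, so reads from a gene and an overlapping antisense gene cannot be told apart. The FPKM values deposited by the authors rest on the same counts, since count over FPKM gave 1 length per gene in all samples (largest relative difference 4.24e-09). The depth was 31904593 to 43035080 counts per sample. Columns were matched to samples by title, and genes by symbol or else by RefSeq gene identifier (mOryCun1.1, names only, so no positions are given).

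Counts were tested in R 4.3.3 with edgeR 4.0.16 (filterByExpr, TMM, quasi-likelihood, condition as single term) over 18697 genes. The standard error is the log2 fold change divided by the square root of F. Alternatives used DESeq2 1.42.0, limma 3.58.1, other scalings and filters, limma on log2(FPKM + 1) and on log2(FPKM + 0.1), the replicate number as a block, and leaving out 1 sample at a time. The tests were tested on simulated data first, in which 200 genes were changed. There edgeR recovered 141 of these genes, DESeq2 162 and limma-voom 141. False calls were 5 of 146 calls with edgeR, 30 of 192 with DESeq2 and 1 of 142 with limma-voom. Exact permutation tests used SciPy 1.17.1. Intervals cover counting error only, as PCR copies could not be told apart.

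No pair of samples of one group agreed within counting noise (chi-square per degree of freedom 20.9 to 198), so none was merged with another as the same library; this does not show that they are separate animals. The members and gene lists were chosen with earlier results of these data known. By the rule for named genes, all members, list genes past the thresholds, the 3 most abundant genes of each list (retina and lens lists only as sums) and the 3 nearest patterns per tested member whose log2 CPM spanned at least 1 are given. Genes named beyond it (CD8B, CD22, CD28, LCK, CD247, TRAT1, IL2RG, MS4A1, BTK, BANK1, CD72, BLK, CIITA, PAX5, GLUL, POU2AF1, IRF4, PRDM1, TNFRSF17, SDC1, FKBP11, DERL3, PIM2, ELL2, PIGR, PRF1, GZMK, FASLG, KLRK1, IFNG, ICAM1, CXCR4, CXCL9, CXCL10, CXCL11, CXCL13, MPO, MMP8, CSF3R, LTF, CXCR2, TREML1, PPBP, GP9, ITGA2B, TUBB1) were chosen after their values were seen, as were the orders of samples and the shares between members.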

Additional observations from a re-analysis of the deposited data

How the results depend on the processing

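No member was past the thresholds in 15 of the 16 other settings. The exception was the replicate block, which takes the replicate number as a term and gave 1 call, JCHAIN (log2 fold change 1.63, adjusted p = 0.0355 from edgeR; over the other 15 settings its adjusted p was between 0.121 and 0.673). The labels give the number no meaning beyond a name. Over 16524 genes the deviations of same-numbered samples correlated at -0.00937, 0.0435 and -0.00349, and normal replicate 1 correlated best with PVR replicate 3 (0.0771). These values gave no sign of pairing by number, but with 3 samples per group they cannot exclude it. The standard error of JCHAIN was 0.175 with the block and 0.927 without it. JCHAIN and MZB1 had replicate 2 highest and replicate 3 lowest in both groups. The number of all genes called, 188, was 807 with DESeq2, 87 on log2(FPKM + 1) and 82 with the replicate block, and between 22 and 436 with 1 sample left out. Genes of the companion lists, 0 with edgeR, were 4 with DESeq2 and between 0 and 4 with 1 sample left out: without normal replicate 3 these were CXCL9, CXCL10 and CXCL11 (lower) and ICAM1 (higher), and without PVR replicate 3 ITGA4 and POU2AF1. Members with groups apart, 0 of 9, were between 0 and 4 with 1 sample left out: CD4 without normal replicate 2 or PVR replicate 2, and the 4 B and plasma cell genes without PVR replicate 3. The log2 fold change of CD3E was between -0.65 and 1.78 with 1 sample left out, -0.17 without normal replicate 3, and that of CD8A was between -0.28 and 0.52. At a limit of at least 10 counts, 3, 7 and 2 members in place of 6, 9 and 3 were detected in the normal samples and 6, 7 and 3 in place of 9, 8 and 4 in the PVR samples. JCHAIN, MZB1 and CD79A kept a positive log2 fold change in every setting that gave them a value; the filter of at least 10 counts in every sample gave none for CD3E, CD79A and MZB1. The causes of these shifts were not tested. CD3 chains, CD4 and CD79B had at most 25 counts in any sample.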
